A study of Mus musculus with 2 samples.

Results

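Genes of the fibroblast growth factor (FGF) family were examined in 2 clones of mouse EpiSC (epiblast stem cells), a pluripotent cell type that resembles the epiblast after implantation. The family members described are Fgf1, Fgf2, Fgf3, Fgf4, Fgf5, Fgf8, Fgf10, Fgf13, Fgf15 and Fgf17. These 10 genes were found among the 30841 gene names on the array by an exact match of the symbol. All of their probes were kept, 13 probes on 31 spots of each array, and none of these spots carried an outlier flag. The study profiled the lines to relate them to EpiSC described earlier. Clone 1 and clone 2 are each a single line, wildtype, female and of C57BL/6 background, taken at passage 9. Both were collected with trypsin, and 0.2 ug of total RNA from each was converted to Cy3-labelled cRNA for a 1-colour Agilent array. Each clone has 1 array, and the pair shares its slide and its scan. Growth medium, added growth factors and feeder cells are not given in the sources used here.

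FGFs are secreted proteins that bind receptor tyrosine kinases together with heparan sulfate and signal largely through the ERK kinases. In pluripotent cells, Fgf4 is the ligand known for moving embryonic stem cells towards lineage commitment, Fgf5 is the classic marker of the epiblast after implantation, and FGF2 protein is a standard supplement of EpiSC cultures. Fgf8 and Fgf17 act in the gastrulating embryo and the brain, Fgf3 and Fgf10 in the inner ear, limb and lung, and Fgf15 as a hormone from the gut. Fgf13 differs from the others, because its product stays inside the cell and binds sodium channels and microtubules.

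The probe sequences show which stretch of a transcript each probe was made to read, since each value rests on a 60-base oligonucleotide. Those below were chosen because the reading of a gene turns on them. Fgf2 and Fgf3 were not detected, and the probes of both cross an exon junction. The 60 bases of the Fgf2 probe (mm9 chr3:37247934-37295153, plus strand) align over 47220 bases of genome, and those of the Fgf3 probe (chr7:152026667-152028526, plus strand) over 1860 bases. Probes 1 and 2 of Fgf8 (chr19:45816855-45816914 and chr19:45811668-45811727, both minus strand) gave different detection calls. Capitals mark the longest run of bases that a probe shares with any probe of another gene on the array, in the same orientation. These runs were 13 bases for Fgf2, 15 for Fgf3, and 13 and 12 for the Fgf8 probes, so no long stretch was common to another probe. Only probes on the array were searched, and binding to other transcripts was not tested.
Fgf2: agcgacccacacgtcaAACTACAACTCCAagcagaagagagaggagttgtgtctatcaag
Fgf3: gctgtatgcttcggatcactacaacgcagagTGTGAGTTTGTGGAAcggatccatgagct
Fgf8 probe 1: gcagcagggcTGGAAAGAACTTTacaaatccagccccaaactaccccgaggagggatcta
Fgf8 probe 2: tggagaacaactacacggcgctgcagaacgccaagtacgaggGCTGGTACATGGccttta

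Other probes hold the letters of the poly(A) signal, which marks the 3′ end of an mRNA. The motif AATAAA or ATTAAA, searched on the strand of the transcript, was present in 4 of the 13 Fgf probes (30.8%) and in 6602 of all 39429 probes (16.7%). The 30-base stretches below hold it in capitals for Fgf4 (probe at chr7:152051089-152051148, plus strand), Fgf5 (chr5:98705980-98706039, plus strand) and Fgf13 (chrX:56316415-56316474, minus strand). A match is a description of the letters and does not show that the site is used.
Fgf4: attgggagagatATTAAAatgacaaacgtg
Fgf5: ttatattcctaaatgctgcAATAAAgaggc
Fgf13: cacctgtactttggggataAATAAAacagc

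Signals are given as the processed intensity of the scanner software with the error the software assigns to the spot, and as log2 values relative to the 75th percentile of all probes on that array. A value of 0 is therefore the signal of the probe at that percentile, which was an intensity of 819 in clone 1 and 726 in clone 2. Detection rests on the software's flag for a spot well above its background, which 50% or more of a probe's spots had to carry. Differences are clone 2 minus clone 1. With 1 array per clone they have no replicate check and no p-value. The technical errors given beside them are the software's error carried to the difference, and the SD of a difference of single spots, which was taken from probes of similar signal printed 10 times. Levels of different probes cannot be compared, because each probe binds its target with its own strength. In bulk RNA, fewer cells of a type and less RNA per cell cannot be told apart.

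Across the arrays, clone 1 had 22530 detected probes and clone 2 had 22567. The median of 153 negative control spots was an intensity of 7.96 and 7.13, respectively. The clones correlated at r = 0.989 across the 21497 probes detected on both arrays (probes are not independent replicates), with a median difference of 0.02 and an SD of 0.42. The label of the cells was checked by markers. All 7 core pluripotency genes and all 7 primed epiblast genes were detected in both clones, with 5 of 8 naive genes and 2 of 6 primitive streak genes. Zfp42, Nr0b1 and Prdm14 were the naive genes detected in neither clone. The naive genes detected in both clones were Klf2, Klf4, Esrrb, Tbx3 and Tfcp2l1. Their log2 signals ran from -3.60 to -0.22 in clone 1 and from -2.86 to -0.02 in clone 2. Of 4 endoderm genes, Gata6 was detected in clone 2 and the other three in neither clone. All 10 fibroblast markers were detected too, with log2 signals from -0.71 to 4.88 in clone 1 and from -0.44 to 5.01 in clone 2. They differed little between the clones (median 0.18, none by 2-fold). What such RNA adds to the Fgf signals below was not tested. Of 6 neural genes, 4 were detected on both arrays, Neurod1 in clone 1 only and Pax6 in neither clone. Of 4 macrophage genes, 2 were detected on both (Csf1r and Lyz2), Cd68 in clone 2 only and Ptprc in clone 1 only. Over all gene names on the array, 54.4% were detected on both.

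Of the 10 family members, 7 were detected on both arrays: Fgf4, Fgf5, Fgf8, Fgf10, Fgf13, Fgf15 and Fgf17. Over all gene names on the array, 16784 of 30841 (54.4%) were detected on both. Fgf1 was detected in clone 1 only, and Fgf2 and Fgf3 in neither clone. Among probes, 8 of 13 were detected on both arrays, and 5 of these had the higher signal in clone 2, the other three in clone 1. A 2-fold difference was found for 0 of the 8, beside 598 of 21497 probes (2.78%) over the whole array. One of the 8, that of Fgf4, differed by 1.5-fold, beside 2058 probes (9.57%) over the whole array. Both shares are close to those of the whole array, so they are no result about the Fgf genes.

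**Figure D1:**
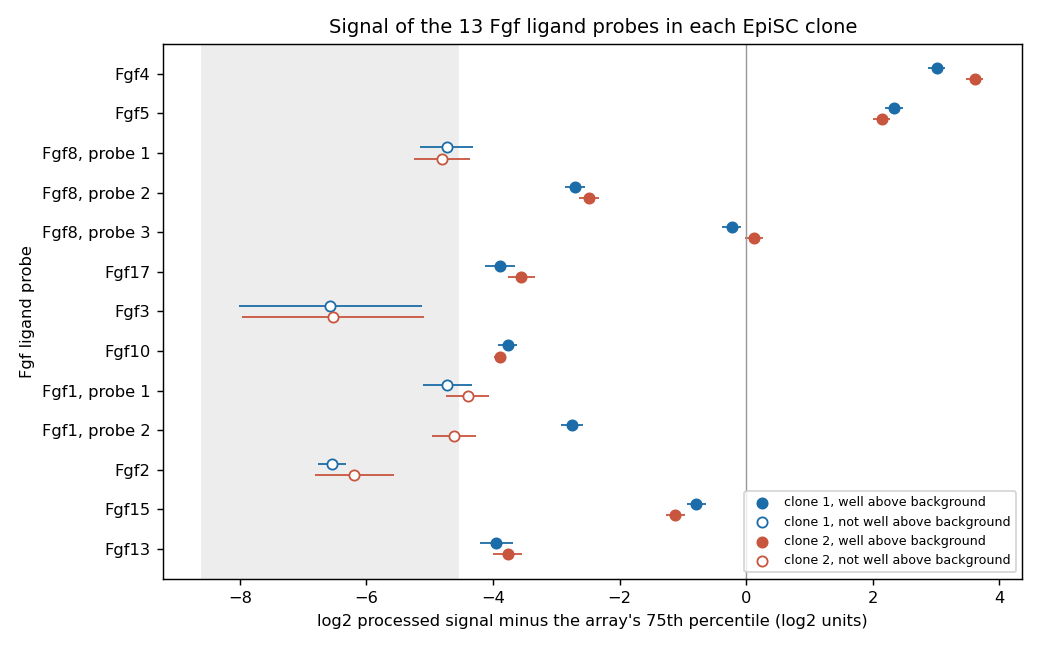
Log2 processed signal minus the array's 75th percentile (horizontal axis, log2 units) for the 13 Fgf ligand probes in clone 1 (blue) and clone 2 (red). Filled points were well above background and open points were not. Bars are the software's error for probes on 1 spot and the SD over 10 spots for Fgf2 and Fgf10, and the shaded range lies below the lowest detected value of either array, -4.55. Fgf1 probe 2 has a filled point in clone 1 and an open one in clone 2.

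Fgf4 and Fgf5 are secreted ligands of the epiblast. Fgf4 was detected in both clones, with an intensity of 6604 ± 660 in clone 1 and 8857 ± 886 in clone 2 (software error, 1 spot each). On the log2 scale these were 3.01 and 3.61. Clone 2 was higher by 0.60 (1.51-fold), with a software error of 0.20 and a single-spot SD of 0.08. Under 6 of 8 other ways of processing the arrays, clone 2 was also higher but by under 1.5-fold. The difference was larger than both technical errors, and no replicate of either clone tells how far it would recur.

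Fgf5, whose probe starts at base 2431 of its transcript, had an intensity of 4149 ± 415 in clone 1 and 3210 ± 321 in clone 2, or 2.34 and 2.14 on the log2 scale. Clone 1 was higher by 1.15-fold, a difference of -0.20 with a software error of 0.20 and a single-spot SD of 0.09. Fgf5 was thus present in both clones, and its difference was as large as the software error and larger than the single-spot SD.

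Fgf8 and Fgf17 belong to one subfamily of secreted ligands that prefer the same receptor isoforms. Fgf8 had 3 probes. Probe 3, which starts at base 1072 of the transcript (chr19:45811355-45811414), had an intensity of 698 ± 70.4 in clone 1 and 795 ± 79.9 in clone 2. Its log2 values of -0.23 and 0.13 differed by 0.36, against a software error of 0.21 and a single-spot SD of 0.10. Probe 2, at base 759, had 126 ± 14.4 and 131 ± 14.5, a log2 difference of 0.22 with a software error of 0.23 and a single-spot SD of 0.14. Both probes were thus detected in both clones and leaned towards clone 2. Of 8 spots beside that of probe 3, 2 were 2-fold higher in clone 2 as well.

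Probe 1 of Fgf8, at base 360, failed the detection flag in both clones, with intensities of 31.0 ± 8.94 and 26.0 ± 7.99. The array's annotation lists 1 RefSeq transcript for probe 1 and 4 for each of the other Fgf8 probes. Sequence common to the 4 listed transcripts was detected, and the sequence read by probe 1 was not well above background. By the positive and significant flag, and by the cut from the negative controls, probe 1 passed in both clones, so that call ends under either rule.

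Fgf17 was detected in both clones, with intensities of 55.4 ± 9.07 and 62.0 ± 8.89. Its log2 values were -3.89 and -3.55. The difference of 0.34 (1.26-fold) was close to its software error of 0.31 and its single-spot SD of 0.23. A difference of this size could not be resolved from spot noise at such a signal.

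Fgf3 and Fgf10 are ligands of organ budding, and Fgf3 is a neighbour of Fgf4 in the genome. Fgf3 had an intensity of 8.61 ± 8.61 in clone 1 and 7.87 ± 7.85 in clone 2. Both values were as large as their own errors and close to the median of the negative controls, so no level can be given.

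Fgf10 was read by a probe at base 3556 of its transcript (chr13:119580365-119580424, plus strand), which was printed 10 times. All 10 spots were well above background on both arrays. The spots ranged in intensity from 52.1 to 71.2 in clone 1 and from 43.9 to 55.9 in clone 2. On the log2 scale the means were -3.77 ± 0.15 and -3.89 ± 0.10 (SD over 10 spots of 1 array, a technical spread). The spots of the clones overlapped and the means differed by -0.11. Fgf10 was thus dim but present in every spot.

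Fgf2 was the other member printed 10 times, and its spots behaved differently. None of its 10 spots was well above background on either array. Intensities ran from 7.70 to 12.0 in clone 1 and from 6.54 to 23.7 in clone 2, and the log2 means were -6.54 ± 0.22 and -6.19 ± 0.62 (SD over 10 spots). By the weaker test of the software, which asks whether a spot is positive and significant against background, 4 spots passed in clone 1 and 5 in clone 2. Fgf2 is a ligand without a classical signal peptide that cells release by an unconventional route. With the rule of 50% of spots, that flag would call Fgf2 detected in clone 2 and not in clone 1. The array says nothing of FGF2 protein in the culture.

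**Figure D2:**
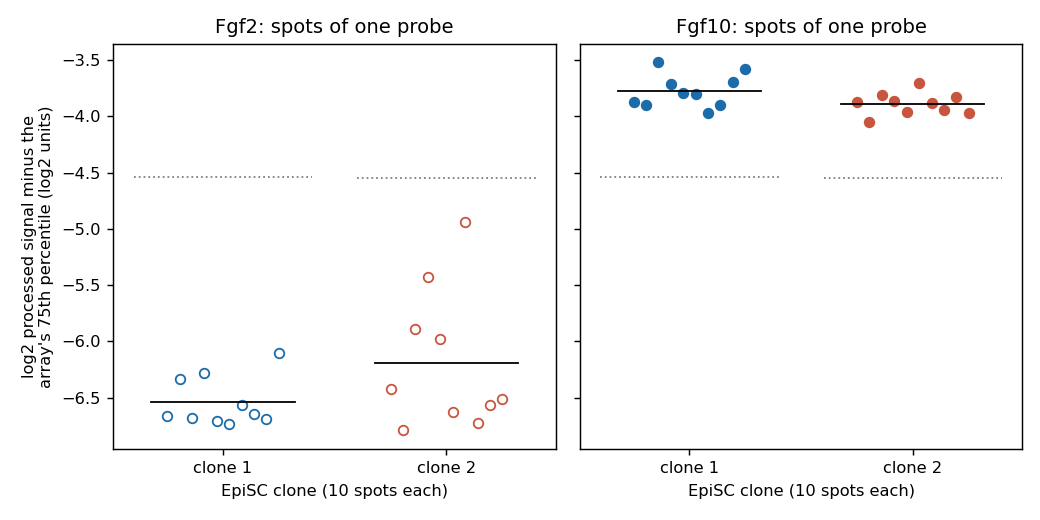
Log2 processed signal minus the array's 75th percentile (vertical axis, log2 units) of the 10 spots each of the Fgf2 probe (left) and the Fgf10 probe (right) in each clone. Filled spots were well above background, open spots were not, black lines are means and dotted lines mark the lowest detected probe of the array (-4.54 and -4.55). Every Fgf10 spot lies above that line, and every Fgf2 spot lies below it.

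Fgf1 also lacks a signal peptide and can bind every FGF receptor. Its 2 probes gave different readings. Probe 1 (chr18:39018274-39018333, minus strand), at base 222 of the transcript, had intensities of 31.0 ± 8.33 and 34.5 ± 8.19 and failed the detection flag in both clones. Probe 2 (chr18:38998337-38998396, minus strand), at base 3839, had 121 ± 14.0 in clone 1, where it was well above background, and 29.6 ± 7.26 in clone 2, where it was not. The signal in clone 1 was at least 3.48-fold higher, counted against the lowest detected signal of the other array. The measured log2 difference of -1.86 shrank to -0.71 with the mean signal without background correction and to -0.19 and -0.77 with the normexp corrections, so its size depends on the background correction. Of 1033 probes detected in clone 1 only, 243 (23.5%) had such a bound of 2-fold or more. By the weaker flag for a positive and significant spot, both Fgf1 probes passed in both clones, so the call of clone 1 alone ends under that rule.

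The Fgf1 value rests on 1 spot on the array of clone 1. The pixels of that spot were uneven, with a coefficient of variation of 34.2%, where all other Fgf probe values lay between 10.8% and 20.4%. Of 25101 spots well above background on that array, 179 (0.713%) were as uneven or more. Of 8 neighbouring spots, 1 was 2-fold higher in clone 1 as well, and no such rate over all spots is given here. Among the repeated probes that were not detected, 0 of 1248 single spots in clone 1 rose 2-fold over the probe's median and well above background. In clone 2, 1 of 1228 did. Spots with an outlier flag had been left out first, and the 1248 spots belong to only 134 probes. This count therefore cannot tell how often a lone spot such as that of Fgf1 strays. What the uneven pixels add to the Fgf1 signal was not tested.

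Fgf15, the mouse counterpart of human FGF19, is an endocrine ligand that needs a klotho protein to bind its receptor. Its probe (chr7:152086371-152086430, plus strand) had an intensity of 474 ± 48.1 in clone 1 and 335 ± 34.4 in clone 2, or -0.79 and -1.12 on the log2 scale. Clone 1 was higher by 1.26-fold, a difference of -0.33 with a software error of 0.21 and a single-spot SD of 0.10. Fgf15 was well above background in both clones, while the klotho genes Kl and Klb were detected in neither. Klb stood at -4.65 in clone 1, close to the lowest detected signal of that array, -4.54.

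Fgf13, the intracellular member, had an intensity of 53.1 ± 9.60 in clone 1 and 53.1 ± 8.39 in clone 2. Its log2 values, -3.95 and -3.77, differed by 0.18 with a software error of 0.35 and a single-spot SD of 0.26. The clones differed by less than either error.

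Fgf3, Fgf4 and Fgf15 lie next to each other on chromosome 7 on the plus strand, and only Fgf4 and Fgf15 were detected. The Fgf3 probe starts 24.4 kb before that of Fgf4 and was at background. The Fgf15 probe starts 35.3 kb beyond that of Fgf4. Between the clones, Fgf4 was higher in clone 2 and Fgf15 in clone 1. Further along, the probe of Oraov1 stood at -0.55 in clone 1 and -0.71 in clone 2, and that of Ccnd1, the gene of cyclin D1, at 3.52 and 3.86.

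The remaining FGF genes were read in the same way. Of 12 further genes of the family, 9 were detected on both arrays and 3 on neither, and the median difference of the 9 was 0.28, beside 0.04 over 16762 genes measured on both arrays. Fgf12, Fgf16 and Fgf20 were the undetected ones. Fgf18 was the 1 gene at least 2-fold apart, at -2.36 in clone 1 and -1.28 in clone 2 (2.11-fold), while its second probe differed by 0.62. Fgf9 (-4.04 and -3.45) and Fgf21 (-2.44 and -1.81) were higher in clone 2 by 1.5-fold and 1.55-fold. Fgf22 had -3.50 in clone 1 and -3.04 in clone 2.

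The other genes differed by less with their brightest probe. Fgf6 stood at -1.27 and -0.98, Fgf7, a ligand made by fibroblasts and other mesenchyme, at -1.75 and -1.58, Fgf11 at -3.38 and -3.42, and Fgf23 at 0.57 and 0.58. The second probes of Fgf6, Fgf22 and Fgf23 were not detected. Fgf14 differed by 0.17 with its brightest probe, and a second one passed the flag in clone 1 alone, with a bound of at least 2.48-fold higher there. The remaining Fgf14 probe was detected in neither clone.

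**Figure D3:**
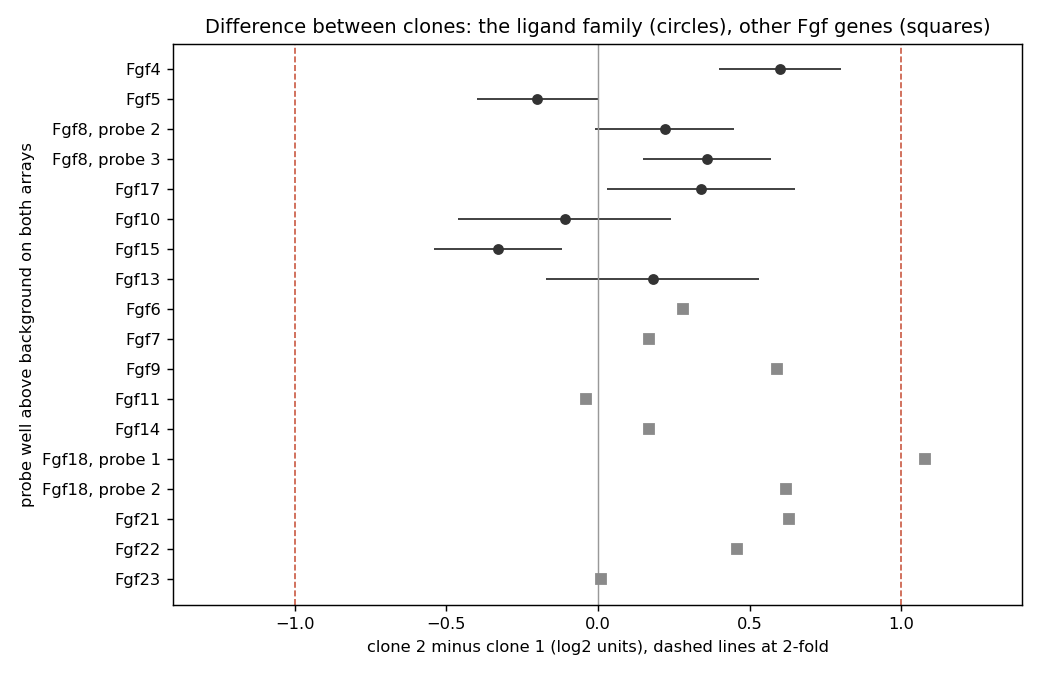
Clone 2 minus clone 1 (horizontal axis, log2 units) for each probe of an Fgf gene that was well above background on both arrays, with dashed lines at 2-fold. Circles are the ligand family described here with the software's error of a spot carried to the difference, and squares are other Fgf genes. The circles lie between -0.33 (Fgf15) and 0.60 (Fgf4), and the brighter Fgf18 probe passes the 2-fold line.

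The receptors decide which ligands a cell can answer. By its brightest probe, Fgfr1, the main receptor of the epiblast, had 3.70 in clone 1 and 3.64 in clone 2. Read the same way, Fgfr2 had -3.67 and -3.68, and Fgfr3 had -1.37 and -1.65. The second Fgfr2 probe was detected in neither clone. The dimmer probes of Fgfr1 and Fgfr3 were detected in both clones and were less than 2-fold apart. Fgfr4 gave opposite readings, 4.71-fold higher in clone 1 by one probe and 2.20-fold higher in clone 2 by the other, so no direction can be given for it. Fgfbp3, which codes for a carrier protein that releases FGFs from the matrix, was 2.22-fold higher in clone 1 (1.97 and 0.82). In all, 8 of 11 receptor, co-receptor and adaptor genes were detected on both arrays (72.7%, beside 54.4% over all gene names). Their median difference was -0.17, and Kl, Klb and Frs3 were detected in neither clone.

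Heparan sulfate enzymes and proteoglycans, which hold FGFs at the cell surface, were all detected on both arrays, 15 of 15, with a median difference of 0.05 and none 2-fold apart. Targets and feedback inhibitors of ERK signalling were detected in 12 of 13 cases, with the exception of Spry4, and again none was 2-fold apart (median 0.05). Over all gene names, 54.4% were detected on both arrays. Of 16762 genes measured on both, 266 were 2-fold higher in clone 2 and 208 in clone 1. With so few over the whole array, the lack of a 2-fold gene is no result about these lists. Etv5, a transcription factor gene induced by FGF signalling, had 5.37 and 5.46, and Dusp6, which codes for an ERK phosphatase, had 4.56 and 4.52. Others were further apart. Egr1 and Fos were higher in clone 2 by 1.66-fold and 1.71-fold, and Etv1 was higher in clone 1 by 1.54-fold with its brightest probe. Of the 12 genes, 7 were higher in clone 2 and 5 in clone 1. These levels do not say which ligand the cells had met.

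The differences of the Fgf probes were recomputed under 8 other ways of processing the arrays. For the 8 probes detected on both arrays this gave 64 values, of which 62 kept their sign. Scaling to the median, scaling to the percentile of detected probes and keeping outlier flags moved each difference by only -0.07 to 0.01. Such shifts were too small to change any of these signs. Fgf4 stayed higher in clone 2 in all 8, by 0.44 to 0.61, and Fgf15 stayed higher in clone 1 (-0.40 to -0.24), as did Fgf5 (-0.29 to -0.08). Fgf10 changed sign in 2 of 8. The Fgf1 difference of probe 2 ranged from -1.94 to -0.19. The normexp corrections, which gave some of its smallest values, add an offset of 50 to every spot.

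**Figure D4:**
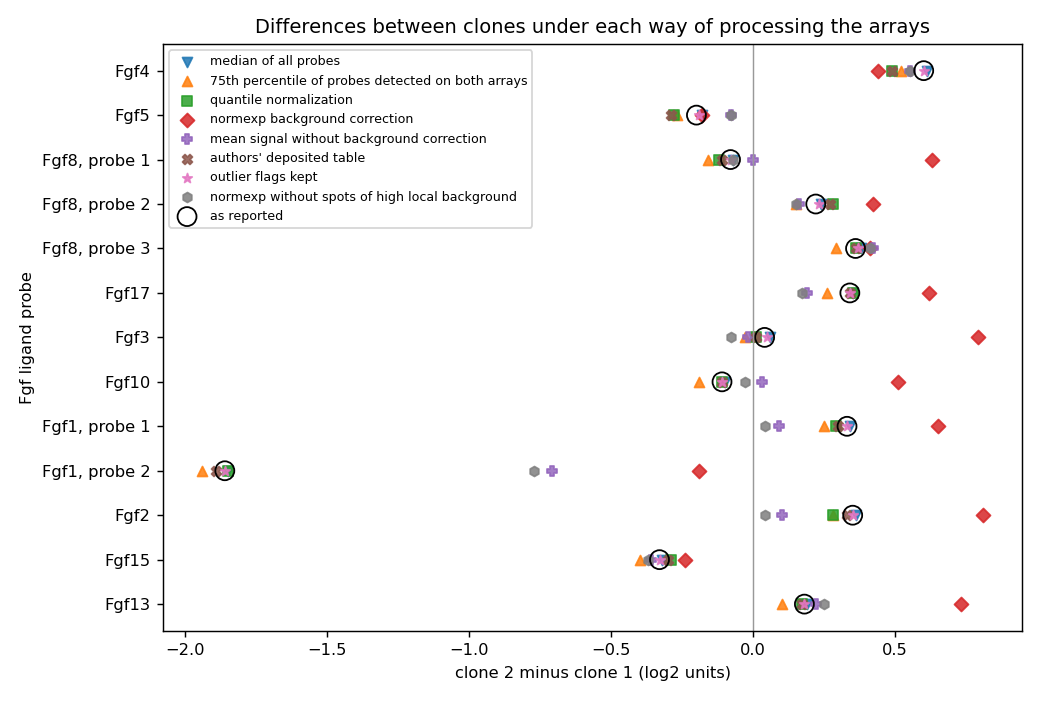
Clone 2 minus clone 1 (horizontal axis, log2 units) of the 13 Fgf ligand probes as reported (open circles) and under 8 other ways of processing the arrays (symbols). Normexp background correction stands apart for the dim probes, up to 0.81 for Fgf2. Fgf4, Fgf5 and Fgf15 keep their sides of 0 throughout, and so do other probes, among them that of Fgf2, which was not detected.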

How the data were processed

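Each clone was measured on 1 Agilent array (design 026655), scanned for Cy3 and extracted with Feature Extraction 11.0.1.1, per the file headers. The deposited values are spot intensities that the software had corrected for background and spatial trends, per the file headers. Per the file headers, probe positions are on mm9. A table deposited by the authors (normalized intensities, method unstated) had column medians of 64.8 and 64.8 and followed the quantile-normalized signals (r = 0.9931 between differences). It served as an alternative. Of 43020 spots per array that were not controls, 277 (clone 1) and 246 (clone 2) carried outlier flags and were left out. Spots of a probe were averaged as log2 values, which gave 39272 probes on both arrays, and the 75th percentile was subtracted. Saturated spots numbered 0 and 1.

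For a lower bound, the dim side is its own value or the lowest detected signal of its array (-4.54 and -4.55), whichever is higher. A listed gene takes the probe with the highest mean signal. The 10 family members and the gene lists were chosen with earlier results of these data known. All members are named, and so are the other Fgf genes, Fgfr1 to Fgfr4 and listed genes at least 2-fold apart. Markers, genes beside Fgf4, undetected list genes and the examples Etv5, Dusp6, Egr1, Fos and Etv1 were named after their values were seen. Python 3.11.15, numpy 2.4.6, pandas 2.3.3, R 4.3.3 and limma 3.58.1 were used. The code that counts 2-fold probes was run on simulated data, which checks the code only. Whether the 2-fold probes counted on these arrays would recur was not tested.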

Additional observations from a re-analysis of the deposited data

How the results depend on the processing

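The count of Fgf genes detected on both arrays was 7 by the main rule, 8 with the positive and significant flag, 8 against the mean plus 3 SD of the negative controls and 6 when all probes of a gene had to pass, which Fgf8 failed. Over all gene names the share was 54.4% by the main rule, 76.1% with the positive and significant flag and 73.4% against the negative controls. It is not given here for the rule on all probes. The 598 probes at least 2-fold apart became 333 with normexp, 366 with normexp fitted without spots of high local background, 2663 without a filter on dim probes, and 1693 where spots had only to be positive and significant. Of those apart, 57.2% were higher in clone 2 by the main rule, 70.0% with normexp and 63.1% with the second normexp fit. The 1 Fgf probe at 1.5-fold, that of Fgf4, sat just past that line. The count was 0 with the percentile of detected probes, with quantile normalization, with the mean signal, with the authors' deposited table and with the second normexp fit, and 2 with normexp (Fgf13 and Fgf17). The median of the 9 further Fgf genes, 0.28, became 0.44 with normexp and 0.19 with the second normexp fit. Normexp moved the median of all detected probes from 0.02 to 0.13, and that of the 3564 probes below a log2 of -3 to 0.51. On the array of clone 2 its fitted background was -55.1, beside 17.5 for clone 1. Without 9 spots whose local background exceeded 100 it was 20.7 and 17.6, and the dim median was 0.00. That second fit was chosen after seeing the data. Quantile normalization moved the number of 2-fold probes to 577 and the median of the further Fgf genes to 0.34.

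No paired analysis was possible because each clone has 1 array, and there was no replicate to leave out. Dim probes, Fgf13 and Fgf17 among them, are limited by a spot noise of about the size of their differences.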
